A study of Mus musculus with 6 samples.

Results

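The ER folding and integrated stress response genes examined here are 32 genes listed by symbol, and all 32 had a row in the deposited liver tables of 23291 genes. They were divided by role into 8 genes of the ATF4 arm, 4 ER stress sensor genes and 20 genes of ER folding and degradation. Xbp1, a factor downstream of the sensor IRE1 (Ern1) and not itself a sensor, is counted with the sensor genes. The dabigatran group comprised C57BL/6 mice given a high fat (Western) diet containing 10 mg/g dabigatran etexilate for 3 months, and the diet group C57BL/6 mice given that diet without the drug for the same time. Dabigatran etexilate is the oral prodrug of dabigatran, a direct inhibitor of thrombin. All mice of both groups received the fat-rich diet, so a lean liver was not part of the comparison, and the labels give no age or sex. RNA was from bulk snap frozen liver, and gene levels are FPKM, a fragment count corrected for gene length and for the size of the library.

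Of the 6 deposited tables, the dabigatran tables labelled replicate 0 and replicate 1 held the same value in each of the 23291 genes and were taken as 1 library, which left 2 dabigatran libraries (replicates 1 and 2) and 3 diet libraries (replicates 0, 1 and 2). The design text speaks of 3 mice in each group. Relative to diet replicate 0, depth was 0.857 and 0.772 in the dabigatran libraries and 1, 0.761 and 0.967 in the diet libraries. A low depth limits the weakly expressed members most. The hepatocyte markers were abundant in every library, with Alb, the albumin gene, at 18532 and 27246 FPKM in dabigatran livers and at 20513, 18647 and 21821 FPKM in diet livers. Pancreatic acinar markers, another source of ER-rich cells, were listed at 0 in all libraries (6 of 6 genes). In bulk liver, fewer cells of a type and less RNA per cell cannot be told apart.

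The endoplasmic reticulum (ER) is where secreted proteins fold, and hepatocytes fold and export most plasma proteins. When unfolded proteins gather, the sensors PERK (Eif2ak3), IRE1 (Ern1) and ATF6 respond. ATF6 is cut to a transcription factor, IRE1 splices Xbp1 mRNA, and both routes raise chaperones, oxidoreductases and degradation factors. PERK instead phosphorylates the initiation factor eIF2, which lowers general translation but favours translation of Atf4. Other eIF2 kinases feed into the same step on amino acid shortage, viral RNA or heme shortage, hence the name integrated stress response, and ATF4 then drives amino acid synthesis genes together with Ddit3 (CHOP) and Trib3. Splicing of Xbp1, cleavage of ATF6 and translation of Atf4 are not visible in gene FPKM.

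ATF6 acts through the ER stress element, which is CCAAT and CCACG with 9 bases between them, and ATF4 acts with C/EBP proteins through a composite element, TGATGNAAN. Both were searched on both strands in the 250 bases before the RefSeq gene start (GRCm38.p6), for which 29 of the 32 members matched a promoter (not Atf6, Hyou1 and Manf). The full ER stress element was found in 9 of these 29 members (31.0%), against 35 of 27025 genes with a promoter (0.130%). All 9 are folding or degradation genes, and none of the 8 ATF4 arm genes or 3 sensor genes with a promoter held it. The composite element was found in Asns, Chac1 and Herpud1, which is 10.3% of the members against 3.89% of all genes. The CCACG part alone was in 75.9% of members and 31.0% of all genes, and the unfolded protein response element TGACGTGG in 0 of the 29 members and 0.603% of all genes. The matches of the full ER stress element and the composite element are shown because they are the elements of the 2 routes in these promoters, each with 5 bases on either side, on the strand of the gene, with the element in capitals.

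Hspa5 (chr2:34772020-34772048, plus strand): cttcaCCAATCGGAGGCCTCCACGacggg
Hsp90b1, far copy (chr10:86705633-86705661, minus strand): caagcCCAATCGCAAGGAGCCACGcttcg
Hsp90b1, near copy (chr10:86705528-86705556, minus strand): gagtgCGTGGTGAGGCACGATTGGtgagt
Dnajc3 (chr14:118937822-118937850, plus strand): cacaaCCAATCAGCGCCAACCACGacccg
Creld2 (chr15:88819515-88819543, plus strand): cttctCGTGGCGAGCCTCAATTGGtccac
Calr (chr8:84847070-84847098, minus strand): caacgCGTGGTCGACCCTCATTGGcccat
Canx (chr11:50325795-50325823, minus strand): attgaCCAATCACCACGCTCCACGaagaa
Pdia6 (chr12:17266486-17266514, plus strand): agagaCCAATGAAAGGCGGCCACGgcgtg
Ero1lb (chr13:12565677-12565705, plus strand): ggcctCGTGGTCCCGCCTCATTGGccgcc
Derl3 (chr10:75893237-75893265, plus strand): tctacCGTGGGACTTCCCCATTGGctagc
Asns (chr6:7693219-7693237, minus strand): ccacaTGATGAAACttccc
Chac1 (chr2:119351043-119351061, plus strand): ctgccGTTGCATCActcct
Herpud1 (chr8:94386311-94386329, plus strand): ggcggGTTGCATCAgcccg

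In Creld2, Calr, Ero1lb, Derl3 and the near copy of Hsp90b1 the ER stress element runs on the opposite strand, so it reads as CGTGG first and ATTGG last. The composite element of Chac1 and Herpud1 is on the opposite strand as well. The element closest to a start was that of Asns, 23 to 15 bases before it, and that of Hspa5 lay 65 to 47 bases before it. A match is a description of the letters and was not taken as a bound site.

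**Figure D1:**
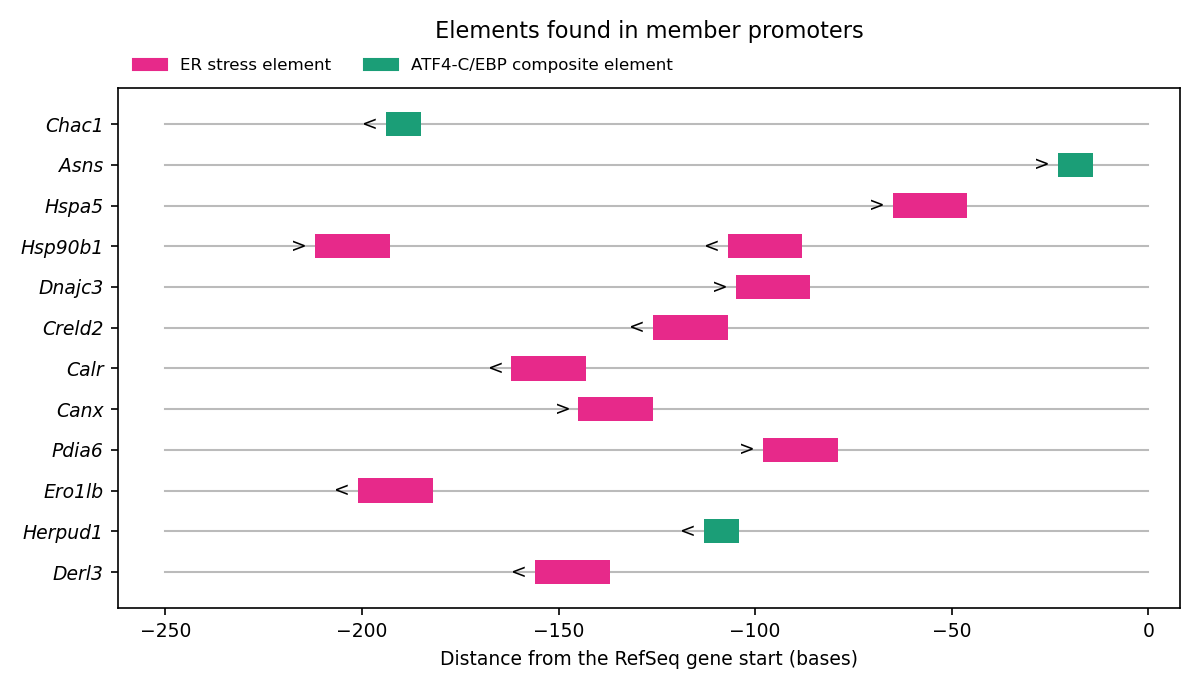
Position of the ER stress element (pink) and the ATF4-C/EBP composite element (green) in the 250 bases before the RefSeq start of each member with a match; the x axis is the distance from the start in bases, and > or < gives the strand of the element relative to the gene. The 9 members with the ER stress element are all folding or degradation genes, and Hsp90b1 holds 2 copies.

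Thrombin inhibition was compared with diet alone to ask which hepatic genes differ. No member passed the test across all genes (limma on log2(FPKM + 0.5), two-sided, Benjamini-Hochberg adjusted p under 0.05), in a comparison in which 0.429% of the 10247 tested genes were called, 0.127% higher and 0.303% lower with dabigatran. A gene was tested where 3 or more of the 5 libraries had 1 FPKM or more, which 28 members reached, while Asns, Psat1, Phgdh and Derl3 did not. At an unadjusted p under 0.05, 5 of the 28 were higher and 0 lower, namely Atf5, Atf4, Dnajb11, Hyou1 and Herpud1, where 6.87% of all tested genes were higher and 9.13% lower. That count was 2 without diet replicate 0, 8 without diet replicate 1 and 4 without diet replicate 2. In these fits 442, 844 and 496 of the 10247 tested genes were higher at the same threshold. With either dabigatran library left out, the other is alone in its group, and the count is not given. In voom on whole fragments, 0 of 22 members were called and 3 were higher at an unadjusted p under 0.05, namely Atf4, Herpud1 and Hyou1. In that fit 870 of the 8419 genes were higher at the same threshold. Atf5 and Dnajb11 had no whole fragments and were not part of it. The lowest adjusted p of a member was 0.114, that of Atf5, and the highest 0.903, that of Canx. The log2 difference was above 0 for 24 of the 28 members and for 51.9% of all tested genes. The median difference was 0.34 on the log2 scale over the members and 0.02 over all tested genes. Over the members it was 0.62 without dabigatran replicate 1 and 0.16 without dabigatran replicate 2. The 95% interval reached above 1 on the log2 scale for 16 of the 28, so a 2-fold higher level stayed within the error of those members. None reached below -1.

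**Figure D2:**
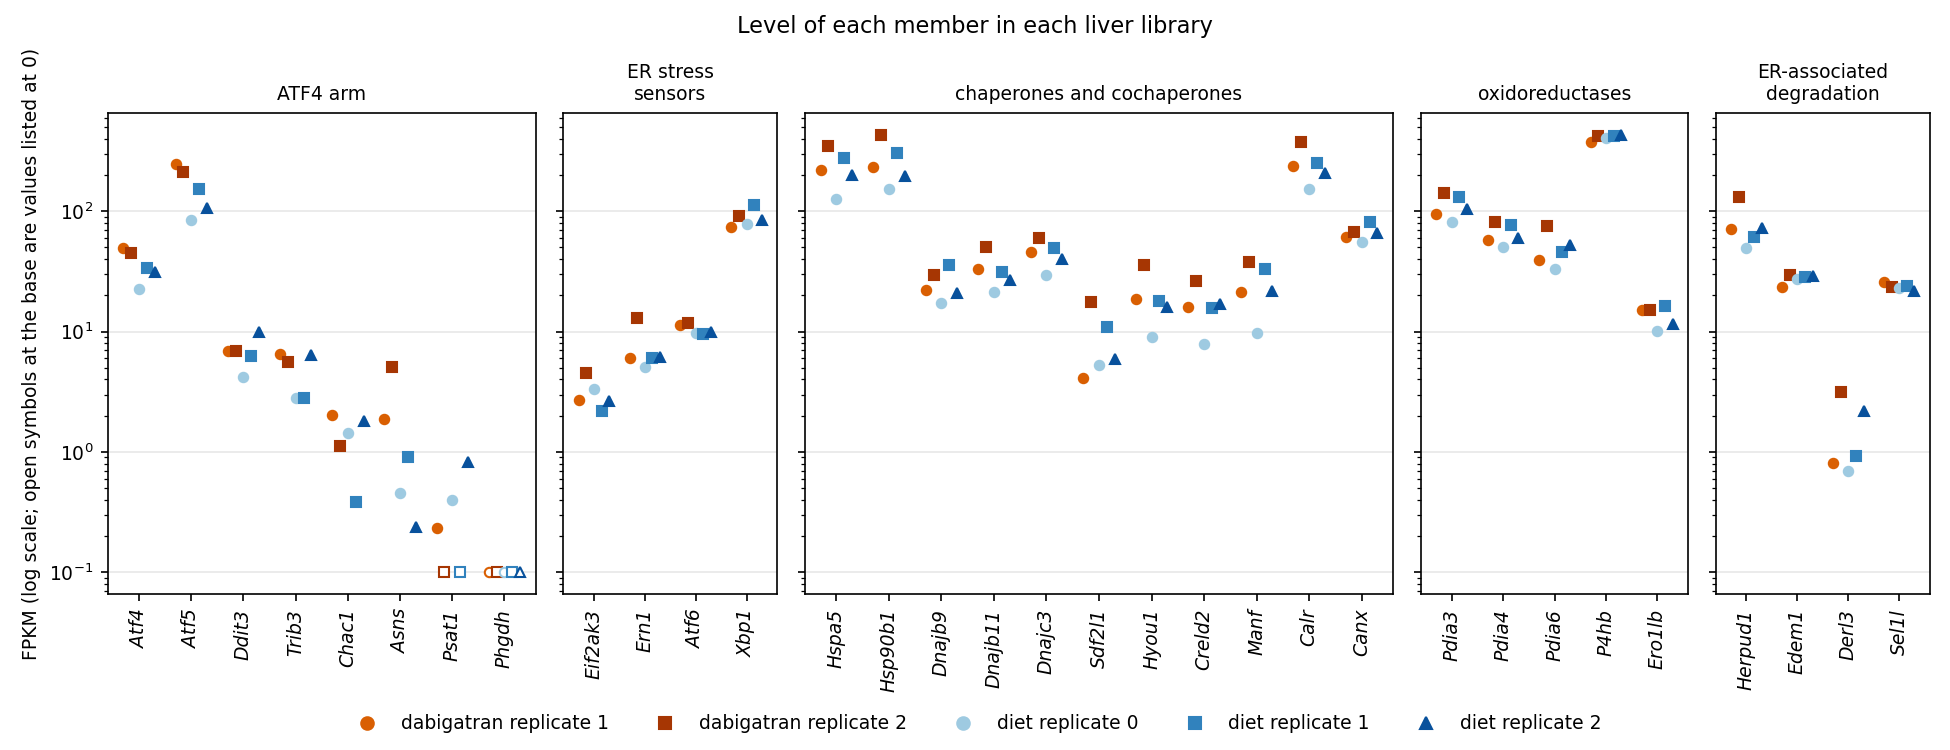
Level of each of the 32 members in FPKM (log scale) in the 2 dabigatran libraries (orange and brown) and the 3 diet libraries (blue), grouped by role; open symbols at the base are values listed at 0. Atf4, Atf5 and Asns (not tested) are the ATF4 arm genes with both dabigatran values above every diet value, as in 17.2% of all tested genes. Diet replicate 1 lies above dabigatran replicate 1 in 8 of the 11 chaperone and cochaperone genes, and in 51.0% of all tested genes.

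Among the ATF4 arm, the transcription factor genes Atf4 and Atf5 and the amino acid enzyme gene Asns had both dabigatran libraries above all diet libraries, while Ddit3, Trib3 and Chac1 overlapped. Asns was not tested, so this held for 2 of the 5 tested genes of the arm. Of the 28 tested members, 5 had both dabigatran libraries above all diet libraries and 0 had both below. Of all tested genes, 17.2% had both dabigatran libraries above all diet libraries, and 17.2% had both below. The median log2 difference of the 5 tested genes of this arm was 0.62.

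Atf4 (chromosome 15, 80255184 to 80257541), the transcription factor translated when eIF2 is phosphorylated, had 49.8 and 45.1 FPKM in dabigatran livers and 22.6, 33.8 and 31.2 FPKM in diet livers. The dabigatran values were close to each other and above the diet values, of which replicate 0 was the lowest. The log2 difference was 0.71 ± 0.21 (SE), with a 95% interval of 0.21 to 1.20 and an adjusted p of 0.175. Atf4 rested on 164 and 134 fragments in the dabigatran libraries and on 87, 99 and 116 in the diet libraries. These are the lowest whole numbers that give the ratios of the FPKM values, and true numbers may be multiples of them. For some genes outside the members the recovered number was instead far too high for the level. Cars had 2457 at 3.49 FPKM in dabigatran replicate 1, where Eif2ak3 had 25 at 2.68 FPKM.

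Atf5 (chromosome 7, 44812256 to 44816658), a related factor that is also translated under eIF2 phosphorylation and is abundant in liver, had 246 and 211 FPKM in dabigatran livers and 85.2, 152 and 107 FPKM in diet livers. The groups did not overlap, and diet replicate 1 was nearest to the dabigatran values. The log2 difference was 1.03 ± 0.25 (SE), a fold of 2.04 on the log2(FPKM + 0.5) scale, with a 95% interval of 0.45 to 1.60 and an adjusted p of 0.114. Without diet replicate 1 the difference was 1.25 and the adjusted p 0.0202, the one call of a member under any alternative. Exons of Atf5 overlap those of Il4i1 and Nup62 on the opposite strand, and reads of these genes cannot be told apart if the counting ignored strand.

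Asns (chromosome 6, 7675169 to 7693254), asparagine synthetase and a classic ATF4 target, was expressed too weakly for the main test. It had 1.87 and 5.05 FPKM in dabigatran livers and 0.459, 0.905 and 0.237 FPKM in diet livers. Both dabigatran libraries lay above the diet libraries, but on few fragments, namely 7 and 17 against 2, 3 and 1. With genes admitted by a mean of at least 1 FPKM, its log2 difference was 1.86 and its adjusted p 0.133.

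Trib3 (chromosome 2, 152337422 to 152344032), a pseudokinase induced by ATF4 and CHOP, had 6.49 and 5.54 FPKM in dabigatran livers and 2.78, 2.81 and 6.42 FPKM in diet livers. Diet replicate 2 stood at the dabigatran level and the other two were below it, with a log2 difference of 0.62 ± 0.36 (SE) and an adjusted p of 0.435, on 26 and 20 fragments in the dabigatran libraries and 13, 10 and 29 in the diet libraries. Ddit3 (chromosome 10, 127290774 to 127296288), which encodes the factor CHOP, had 6.96 and 6.95 FPKM in dabigatran livers and 4.17, 6.27 and 9.87 FPKM in diet livers. Its dabigatran values lay inside the diet range (log2 difference 0.11 ± 0.33 SE, 95% interval -0.65 to 0.87, adjusted p = 0.900). Exons of Ddit3 overlap those of Mars on the opposite strand, with the same limit as for Atf5.

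Chac1 (chromosome 2, 119351229 to 119354381), a glutathione-degrading enzyme induced through ATF4, had 2.03 and 1.13 FPKM in dabigatran livers and 1.45, 0.381 and 1.80 FPKM in diet livers, on 1 to 6 fragments per library (adjusted p = 0.756). The serine synthesis genes were at the bottom of the scale in both groups. Psat1, the aminotransferase of that pathway, had 0.234 FPKM and a value listed at 0 in the dabigatran libraries, and 0.402, a value listed at 0, and 0.831 FPKM in the diet libraries, on at most 4 fragments. Phgdh, the first enzyme of the pathway, was listed at 0 in all libraries. A listed 0 may stand for an estimate that failed, and 47.8% of the 50-base windows of Phgdh also occur in other genes, mostly Gm7901.

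None of the 4 ER stress sensor genes passed the test. Atf6 (chromosome 1, 170704674 to 170867771) had 11.4 and 11.8 FPKM in dabigatran livers and 9.67, 9.64 and 9.84 FPKM in diet livers. Both dabigatran values lay above a narrow diet range, and the log2 difference was 0.25 ± 0.19 (SE, adjusted p = 0.559). Ern1, the IRE1 gene, had 5.98 and 12.9 FPKM in dabigatran livers and 5.13, 6.05 and 6.17 FPKM in diet livers (0.57 ± 0.32 SE, adjusted p = 0.419). Only dabigatran replicate 2 stood above the diet range.

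Eif2ak3, the PERK gene, had 2.68 and 4.52 FPKM in dabigatran livers and 3.31, 2.17 and 2.66 FPKM in diet livers (0.33 ± 0.31 SE, adjusted p = 0.636), on 25 and 38 fragments against 36, 18 and 28. Xbp1 (chromosome 11, 5520659 to 5525893), the factor activated by IRE1 splicing, had 74.3 and 91.5 FPKM in dabigatran livers and 78.8, 113 and 84.1 FPKM in diet livers. Of the 4 genes in the sensor list, Xbp1 was the one with a log2 difference below 0 (-0.14 ± 0.21 SE, 95% interval -0.62 to 0.35, adjusted p = 0.790). Diet replicate 1 had its highest value. The median log2 difference of the 4 sensor genes was 0.29, and 0.02 without dabigatran replicate 2.

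**Figure D3:**
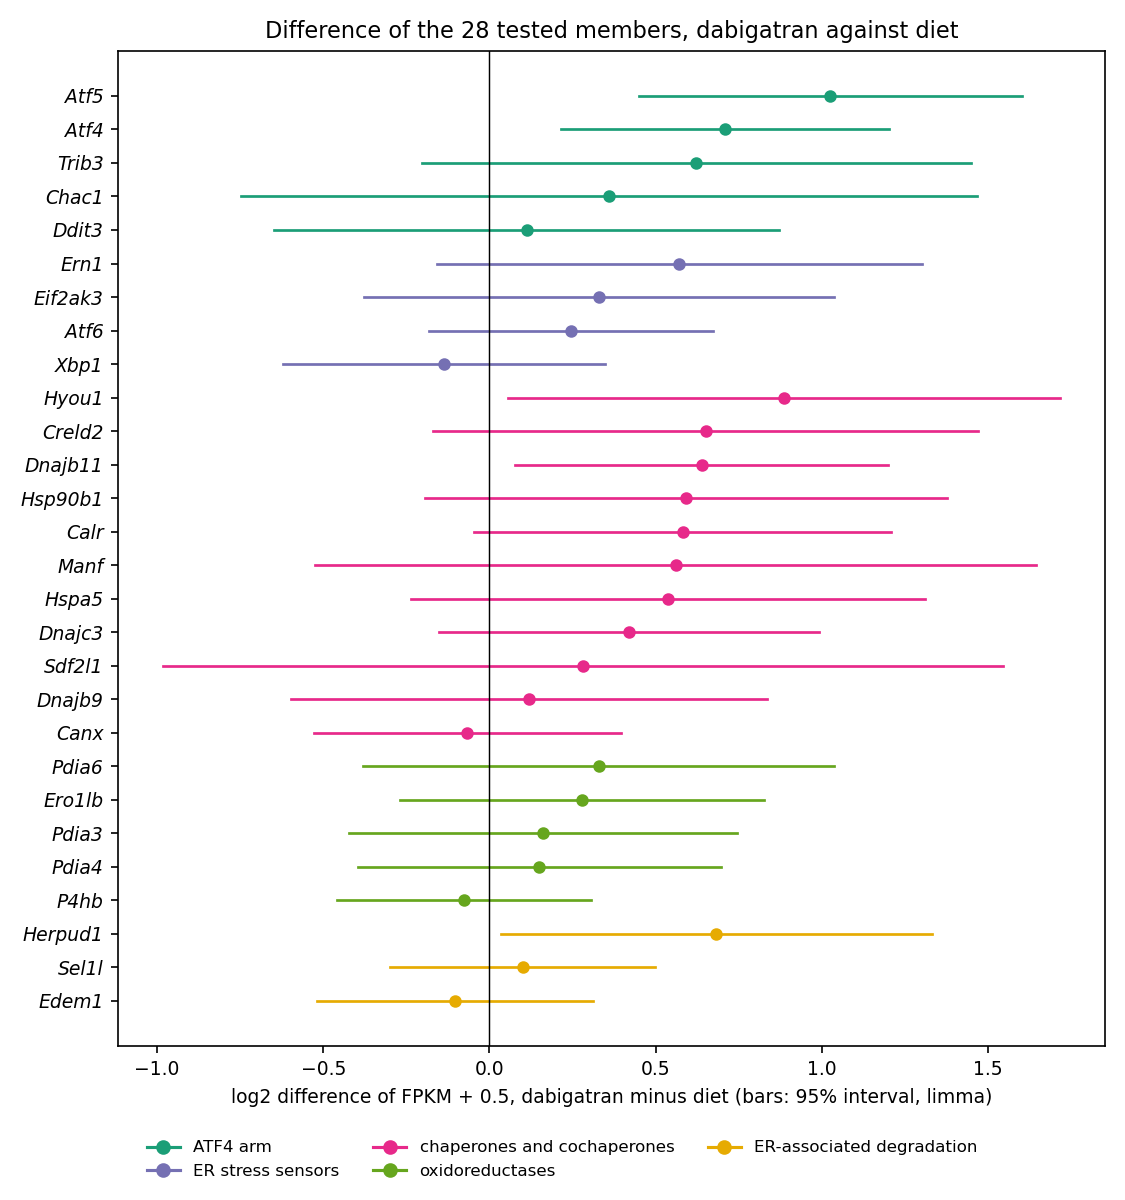
Log2 difference of FPKM + 0.5, dabigatran minus diet, for the 28 tested members, with 95% intervals from limma and colours for roles. The intervals of Atf5, Atf4, Hyou1, Dnajb11 and Herpud1 lie above 0, the other 23 hold 0, and no member passed after adjustment over all 10247 tested genes.

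No gene of ER folding and degradation passed the test, and the libraries of a group differed widely. Of the 19 tested, 16 had a log2 difference above 0, with a median of 0.33, and adjusted p-values from 0.259 to 0.903. Their summed level was 1614 and 2397 FPKM in dabigatran livers and 1271, 1907 and 1601 FPKM in diet livers, so that dabigatran replicate 1 stood at the level of diet replicate 2 and below diet replicate 1. Groups failed to overlap for Dnajb11 and Hyou1 alone, 2 of the 19, with dabigatran higher. Of all tested genes, 17.2% lay apart in that direction.

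The most abundant chaperones had the same order of libraries. Hspa5 (chromosome 2, 34771970 to 34777547), which encodes BiP, the Hsp70 chaperone of the ER that holds the sensors inactive until unfolded proteins draw it away, had 221 and 347 FPKM in dabigatran livers and 126, 275 and 201 FPKM in diet livers. Diet replicate 1 exceeded dabigatran replicate 1, and the diet libraries alone spanned a 2.19-fold range. The log2 difference was 0.54 ± 0.34 (SE, 95% interval -0.23 to 1.31, adjusted p = 0.470). Calr (chromosome 8, 84841850 to 84846934), calreticulin, the soluble lectin chaperone for glycoproteins, had 237 and 373 FPKM in dabigatran livers and 152, 251 and 206 FPKM in diet livers (0.58 ± 0.27 SE, adjusted p = 0.344). Hsp90b1, which encodes the ER Hsp90 protein GRP94, had 232 and 431 FPKM in dabigatran livers and 154, 302 and 198 FPKM in diet livers (adjusted p = 0.435). In both genes, as in Hspa5, dabigatran replicate 2 was the highest library and diet replicate 0 the lowest.

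Hyou1 (chromosome 9, 44379490 to 44392369), an Hsp110-type exchange factor for BiP, had the largest log2 difference of the folding genes. Its values were 18.7 and 35.8 FPKM in dabigatran livers and 8.96, 18.0 and 16.1 FPKM in diet livers. The groups did not overlap, but dabigatran replicate 1 and diet replicate 1 were nearly equal, and the difference was 0.89 ± 0.36 (SE, 95% interval 0.06 to 1.72, adjusted p = 0.283). Dnajb11 (chromosome 16, 22857845 to 22879634), a J-domain cochaperone of BiP, had 33.3 and 50.2 FPKM in dabigatran livers and 21.4, 31.2 and 26.6 FPKM in diet livers. Its groups did not overlap either, by a small margin at diet replicate 1 (0.64 ± 0.24 SE, adjusted p = 0.259).

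The secreted and ER-resident stress protein genes Creld2 and Manf had wide diet ranges. Creld2 had 15.9 and 26.1 FPKM in dabigatran livers and 7.86, 15.7 and 17.0 FPKM in diet livers (0.65 ± 0.36 SE, adjusted p = 0.414). Manf had 21.4 and 37.8 FPKM in dabigatran livers and 9.68, 33.2 and 21.7 FPKM in diet livers, a 3.43-fold range within the diet group (adjusted p = 0.599). Sdf2l1, a subunit of the BiP and Dnajb11 complex, had the widest split of a tested member within the dabigatran group, with 4.10 and 17.6 FPKM beside 5.27, 10.96 and 5.90 FPKM in diet livers (8 and 31 fragments against 12, 19 and 13). Manf shares exon bases with Rbm15b on its own strand, and 6.17% of its 50-base windows also occur in other genes. This share was 9.76% for Hsp90b1, 9.39% for Ero1lb, 5.71% for Eif2ak3 and 5.50% for Dnajb9, so the levels of these 5 genes are less certain. The J-domain genes Dnajc3 and Dnajb9 had log2 differences of 0.42 and 0.12. Canx, the membrane-bound lectin partner of calreticulin, had 60.8 and 66.9 FPKM in dabigatran livers and 56.0, 81.0 and 65.7 FPKM in diet livers, and its log2 difference was -0.07 ± 0.20 (SE).

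The oxidoreductases, which form and shuffle disulfide bonds, had smaller differences, with a median log2 difference of 0.16 over 5 genes. P4hb, protein disulfide isomerase itself and the highest member in the diet group, had 373 and 422 FPKM in dabigatran livers and 407, 418 and 429 FPKM in diet livers. Its diet libraries spanned a 1.05-fold range, and the log2 difference was -0.08 ± 0.17 (SE, 95% interval -0.46 to 0.31, adjusted p = 0.856). Pdia3, which acts on glycoproteins held by calreticulin and calnexin, had 95.3 and 141 FPKM in dabigatran livers and 81.5, 131 and 104 FPKM in diet livers (adjusted p = 0.797).

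Pdia6 had 39.1 and 75.7 FPKM in dabigatran livers and 33.3, 46.0 and 52.8 FPKM in diet livers (0.33 ± 0.31 SE, adjusted p = 0.638). Pdia4 had a log2 difference of 0.15 ± 0.24 (SE, adjusted p = 0.799), with 57.9 and 81.3 FPKM in dabigatran livers and 50.7, 77.5 and 60.1 FPKM in diet livers. Ero1lb, which reoxidises protein disulfide isomerase, had 15.2 and 15.2 FPKM in dabigatran livers, inside the diet range of 10.1 to 16.3 FPKM (0.28 ± 0.24 SE, adjusted p = 0.602). All 5 oxidoreductases had a higher value in diet replicate 1 than in dabigatran replicate 1.

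Of the degradation genes, Herpud1 (chromosome 8, 94386438 to 94395377), a membrane scaffold of the ubiquitin ligase complex, had 71.4 and 131 FPKM in dabigatran livers and 49.4, 61.4 and 71.9 FPKM in diet livers. Dabigatran replicate 1 was level with diet replicate 2, and replicate 2 stood above all others (0.68 ± 0.28 SE, 95% interval 0.03 to 1.33, adjusted p = 0.291). Without dabigatran replicate 1 its difference was 1.12 (adjusted p = 0.0762), and without replicate 2 it was 0.24 (adjusted p = 0.820). In both fits the dabigatran group is 1 library, which is assumed to vary like the diet libraries. Sel1l, the adaptor of the ligase, had 25.8 and 23.5 FPKM in dabigatran livers and 23.0, 24.04 and 21.8 FPKM in diet livers. Edem1, a mannosidase-like protein that hands over misfolded glycoproteins, had 23.5 and 29.3 FPKM in dabigatran livers and 27.6, 28.2 and 28.9 FPKM in diet livers. Neither passed the test (log2 differences 0.10 ± 0.17 and -0.10 ± 0.18, SE, adjusted p = 0.818 and 0.820). Derl3, a channel component of the pathway, was too low to test, with 0.817 and 3.17 FPKM in dabigatran livers and 0.700, 0.920 and 2.17 FPKM in diet livers, on 2 to 7 fragments.

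The order of the libraries is given here for the folding genes and for the ATF4 arm, with no test of the difference between them. Dabigatran replicate 2 exceeded replicate 1 in 18 of the 19 tested folding and degradation genes and in 0 of the 5 tested ATF4 arm genes, against 52.9% of all tested genes. Asns, the arm gene too low to test, had its higher value in dabigatran replicate 2, and so had 17 of 26 further ATF4 targets (65.4%). Diet replicate 1 exceeded dabigatran replicate 1 in 14 of the 19 and in 0 of the 5, against 51.0% of all tested genes. Dabigatran replicate 2 was the highest of the 5 libraries in 14 of the 19 folding genes (29.0% of all tested genes), and diet replicate 0 the lowest in 15 (17.6% of all tested genes). On the log2 scale and against the diet mean, the folding genes had medians of 0.16 and 0.80 in dabigatran replicates 1 and 2 and of -0.37, 0.33 and 0.03 in diet replicates 0, 1 and 2. The ATF4 arm had 0.73 and 0.52 in the dabigatran libraries and -0.36, -0.03 and 0.54 in the diet libraries. The median SD among the diet libraries was 0.34 for the tested folding genes and 0.58 for the tested ATF4 arm genes, against 0.24 for all tested genes, on the same log2 scale. These genes share their libraries, and the counts are descriptions of 5 samples.

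**Figure D4:**
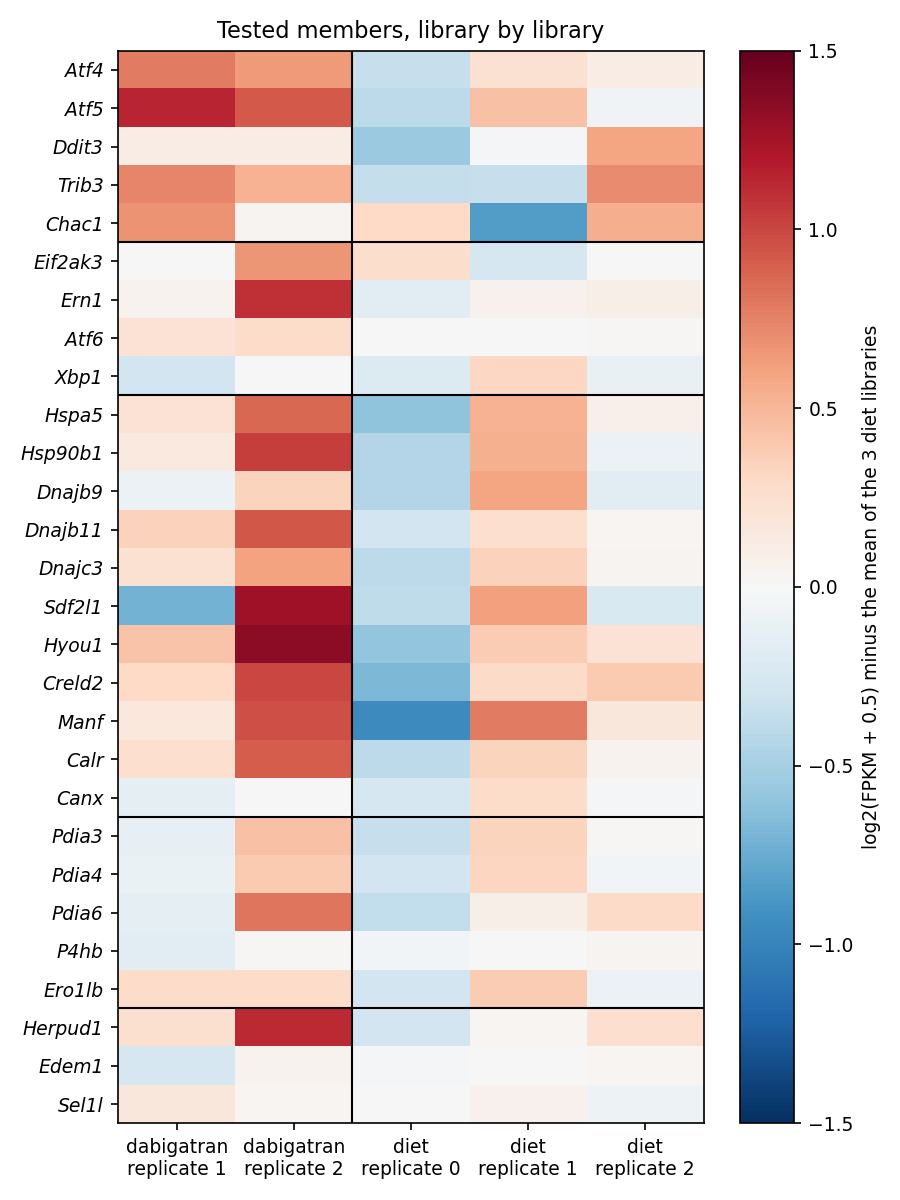
Log2(FPKM + 0.5) of each tested member in each library minus the mean of the 3 diet libraries (red above, blue below), with black lines between roles and between the dabigatran and diet libraries. The chaperone block is reddest in dabigatran replicate 2 and blue in diet replicate 0, with diet replicate 1 red as well, while Atf4 and Atf5 are red in both dabigatran libraries.

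Of 10 hepatocyte markers, 7 were highest in dabigatran replicate 2 (29.0% of all tested genes). Ttr was lowest there, G6pc was highest in dabigatran replicate 1 and Apoc3 in diet replicate 2. Their summed level, mostly of Alb and Apoa1, was 35822 and 49873 FPKM in dabigatran livers and 31626 to 34590 FPKM in diet livers. A log2 difference above 0 was found in 9 of the 10 (51.9% of all tested genes), with a median over the 10 of 0.64. At an unadjusted p under 0.05, 6 were higher and 0 lower, against 6.87% and 9.13% of all tested genes. Both dabigatran libraries lay above all diet libraries in 6 and below in 1, against 17.2% of all tested genes in each direction. Macrophage and Kupffer cell markers (12 genes) summed to 497 and 327 FPKM in dabigatran livers and to 359 to 484 FPKM in diet livers, lowest in dabigatran replicate 2. Plasma and B cell markers, of antibody-secreting cells rich in ER and their precursors, summed over 9 genes to 77.2 and 53.0 FPKM in dabigatran livers and to 45.3 to 45.8 FPKM in diet livers. Nearly all of that was Sdc1, which hepatocytes also express, at 71.1 and 51.5 FPKM in dabigatran livers and 40.9 to 42.1 FPKM in diet livers. Of the 9 genes, 1 reached the level for testing. The plasma cell gene Tnfrsf17, a single gene of the list, was listed at 0 in every library except diet replicate 1, with 0.638 FPKM. Sinusoidal endothelial markers (7 genes) summed to 101 and 98.3 FPKM in dabigatran livers and to 98.7 to 102 FPKM in diet livers. Singly, 6 of the 7 had both dabigatran libraries above all diet libraries and 1 had both below. Stellate cell and fibroblast markers (7 genes) summed to 94.6 and 99.5 FPKM in dabigatran livers and to 94.2 to 141 FPKM in diet livers. Cholangiocyte markers (5 genes) summed to 38.9 and 11.1 FPKM in dabigatran livers and to 32.8 to 51.9 FPKM in diet livers. Adipocyte markers (5 genes) were listed at 0 in both dabigatran libraries and summed to 28.3 to 151 FPKM in diet livers, nearly all of it Cfd, the adipsin gene. The part of these markers in the values of the members was not tested.

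The folding and degradation genes that hold an ER stress element had a median log2 difference of 0.48 (8 tested), and those with a promoter and no match 0.15 (9 tested). The ranges of single genes overlapped, from -0.07 to 0.65 with the element and from -0.10 to 0.68 without a match. Hyou1 and Manf, with log2 differences of 0.89 and 0.56, had no matched promoter and are in neither set. No test was made of this split.

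Other genes of these pathways gave no call either. Of 26 tested further ATF4 targets, 0 were called, with 5 higher and 1 lower at an unadjusted p under 0.05 and a median log2 difference of 0.19. At that threshold 6.87% of all tested genes were higher and 9.13% lower. Ddit4, an mTORC1 inhibitor induced by stress and glucocorticoids, had 3.43 and 14.9 FPKM in dabigatran livers and a value listed at 0, 0.702 and 1.11 FPKM in diet livers (adjusted p = 0.0906, and 0.0332 without dabigatran replicate 1, where the lone dabigatran library is assumed to vary like the diet libraries). Cth, the cystathionine gamma-lyase gene, had 463 and 515 FPKM in dabigatran livers and 160, 343 and 170 FPKM in diet livers (1.21 ± 0.32 SE, adjusted p = 0.134, and 0.00735 without diet replicate 1). The isoleucine tRNA synthetase gene Iars had 8.02 and 12.7 FPKM in dabigatran livers and 6.31, 5.69 and 5.75 FPKM in diet livers (adjusted p = 0.214). All 3 had both dabigatran libraries above the diet libraries, as had 9 of the 26, while Atf3, Gdf15 and Wars had both below. Of all tested genes, 17.2% lay above and 17.2% below in this way.

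Among 13 genes of eIF2, its kinases, its exchange factor and its phosphatase, 0 were called, with 3 higher and 1 lower at an unadjusted p under 0.05. The shares of all tested genes at that threshold were 6.87% and 9.13%. The exchange factor subunit Eif2b2 had 9.78 and 12.7 FPKM in dabigatran livers and 5.49, 6.46 and 6.28 FPKM in diet livers (0.83 ± 0.22 SE, adjusted p = 0.132). Eif2b3 had 5.52 and 11.4 FPKM in dabigatran livers and 4.13, 4.25 and 3.67 FPKM in diet livers (adjusted p = 0.217). The phosphatase catalytic subunit gene Ppp1ca lay lower, with 64.6 and 61.1 FPKM in dabigatran livers and 90.9, 77.2 and 98.0 FPKM in diet livers (adjusted p = 0.238).

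Further ER folding enzymes (23 tested), translocon and glycosylation genes (21), degradation genes (15), and ER-tethered transcription factors with the proteases Mbtps1 and Mbtps2 that cut them (6), had 0 calls each. At an unadjusted p under 0.05, 5, 1, 3 and 1 of them were higher and 0 lower, with median log2 differences of 0.09, 0.10, 0.28 and 0.13. At that threshold 6.87% of all tested genes were higher and 9.13% lower. The prolyl isomerase gene Fkbp11, an XBP1 target, had 6.99 and 8.73 FPKM in dabigatran livers and 3.00, 2.95 and 5.43 FPKM in diet livers (1.00 ± 0.30 SE, adjusted p = 0.173). Dnajc1 and Prkcsh, a J-domain protein and the beta subunit of glucosidase II, had log2 differences of 0.55 and 0.59 (adjusted p = 0.259 and 0.264). Sec61a1, the pore of the translocon, had 34.6 and 45.1 FPKM in dabigatran livers and 22.2, 27.5 and 25.2 FPKM in diet livers (0.66 ± 0.20 SE, adjusted p = 0.173), while Ssr2 and Sec11c lay lower with differences of -0.35 and -0.49 (adjusted p = 0.373 and 0.395). Ube2j1, Os9 and Syvn1, a conjugating enzyme, a lectin and the HRD1 ligase of ER-associated degradation, had differences of 0.70, 0.56 and 0.70 (adjusted p = 0.194, 0.201 and 0.266). Creb3, Atf6b and the ATF6-cleaving protease gene Mbtps1 had differences of 0.68, 0.26 and -0.27 (adjusted p = 0.234, 0.640 and 0.514).

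Heat shock genes of the folding machinery outside the ER had a median log2 difference of -0.10 over 10 tested genes, which include the mitochondrial chaperone genes Hspd1 and Hspe1 and the regulator Hsf1. Without Hspd1 and Hspe1 the median was -0.32 over 8 genes. None was called, with 0 higher and 3 lower at an unadjusted p under 0.05, against 6.87% higher and 9.13% lower of all tested genes. Dnaja1 had 32.4 and 34.4 FPKM in dabigatran livers and 43.5, 52.6 and 49.5 FPKM in diet livers (-0.53 ± 0.17 SE, adjusted p = 0.205). Hsph1 and Dnajb1 had differences of -0.72 and -0.62 (adjusted p = 0.229 and 0.230). In these 3 genes, named for their low p, both dabigatran libraries lay below all diet libraries, as in 17.2% of all tested genes.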

How the data were processed

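Each table deposited by the authors gives FPKM by gene symbol for 1 library, a unit named per the file headers. Software in the submitters' processing notes includes TopHat2 2.0.4 and Cuffdiff, with R 2.15.1, and the build is mm10 (GRCm38). Which annotation was used, whether reads were counted by strand and how libraries were scaled is not given in the sources used here. Since FPKM is relative to a library's total, abundant genes can lower the rest.

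FPKM are not counts, so limma 3.58.1 in R 4.3.3 (lmFit, eBayes with a variance trend, group as the sole term) was run on log2(FPKM + 0.5) over all 10247 tested genes. The steps were tested on simulated data. Differences are dabigatran minus diet, and the pseudocount understates those of low genes. Fragments were recovered from the steps of low values. For 82.2% of tested genes the values were whole multiples within a relative tolerance of 2e-05, and these went into voom. Some of these matches gave numbers far too high for the level, as in Cars. They were not removed, so the voom fit rests partly on them. Fragments cover counting error only. Gene coordinates are from GENCODE M21 (GRCm38), and promoters from RefSeq.

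The members and lists were chosen with earlier results of these data known. Library values are given for the 4 members of lowest p in each role, for Atf4, Ddit3, Trib3, Asns, Hspa5 and Xbp1, and the 3 genes of lowest p in each further list are named, some by their difference and adjusted p alone. Other members with values were chosen after these were seen. Alternatives covered the pseudocount, filter, variance model, scaling, fragments, a replicate block and leaving out each library. A planned search of protein sequences was not run.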

Additional observations from a re-analysis of the deposited data

How the results depend on the processing

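Under the other settings and with single libraries left out, no member was called, except that Atf5 was called higher without diet replicate 1, so the count of members ranged from 0 to 1 over the libraries left out. The background count of called genes, 44, was less steady. It was 23 with a pseudocount of 0.1, 0 without a filter on low values, 0 without a variance trend, 69 with a robust variance, 27 after quantile normalization and 12 with voom on whole fragments, where the median of all tested genes also lay at 0.13 on the log2 scale. It ranged from 0 to 294 when single libraries were left out (275 without dabigatran replicate 1, 0 without dabigatran replicate 2, 1 without diet replicate 0, 294 without diet replicate 1 and 0 without diet replicate 2). Where limma called 0 genes, those at an unadjusted p under 0.05 numbered 816 higher and 1117 lower without a filter, 692 and 870 without a variance trend, 340 and 670 without dabigatran replicate 2, and 496 and 611 without diet replicate 2. The cause of these moves was not tested. Without a dabigatran library, the other is alone in its group and assumed to vary like the diet libraries. The members at an unadjusted p under 0.05, 5 higher, were 2 without a variance trend and 1 with the replicate block. In these 2 fits, 692 and 445 of all tested genes were higher at that threshold.

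A block on the replicate number, which the labels do not tie to a shared animal or day, gave 13 called genes and no member. The deviations of same-numbered libraries correlated at -0.045 (replicate 1) and -0.025 (replicate 2) across genes. With 2 dabigatran libraries their deviations mirror each other, so these values are not separate checks of a pairing. Diet replicate 0 has no dabigatran library of its number. The block therefore gave the same log2 differences as leaving that library out, with other standard errors, and is not a separate check of them. Among them were -0.17 for Ddit3, -0.010 for Pdia3 and -0.099 for Dnajb9.

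The median of the folding and degradation genes, 0.33, ranged from 0.13 to 0.80 over the libraries left out (0.80 without dabigatran replicate 1, 0.16 without dabigatran replicate 2, 0.13 without diet replicate 0 and 0.59 without diet replicate 1). The median over all tested members, added after seeing the data, ranged from 0.16 to 0.62, and the heat shock median without mitochondrial members was added likewise. The median of the ATF4 arm ranged from 0.45 to 0.76. That of the sensors, 0.29, ranged from 0.024 to 0.46 and was 0.41 with voom and 0.35 with the block. Log2 differences that changed sign when 1 library was left out were those of Ddit3 (range -0.17 to 0.41), Eif2ak3 (-0.00052 to 0.66), Pdia3 (-0.12 to 0.44), Pdia4 (-0.094 to 0.39), Pdia6 (-0.14 to 0.80), Chac1 (-0.062 to 0.68), Xbp1 (-0.29 to 0.018), Edem1 (-0.26 to 0.052), Dnajb9 (-0.099 to 0.42), Sdf2l1 (-0.71 to 1.27), Canx (-0.19 to 0.072) and P4hb (-0.17 to 0.012), none of them called. Canx was also above 0 after quantile normalization (0.026), and P4hb with voom (0.021). Depth limits Asns, Chac1, Psat1, Derl3 and Sdf2l1 most.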
